A study of Mus musculus with 8 samples.

Results

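The histone genes described here are the protein-coding rows of a mouse liver expression table whose symbols begin with Hist1h, Hist2h, Hist3h or Hist4h. They are 66 of 35638 genes in the table. By core type they comprise 6 H1, 18 H2A, 17 H2B, 12 H3 and 13 H4 genes. By cluster, 54 carry the prefix Hist1, 10 Hist2, 1 Hist3 (Hist3h2a) and 1 Hist4 (Hist4h4). The livers were frozen at postnatal day 90 and came from mice of the strain given as C57/B6 and 129 mix. The KO group (4 libraries) carried Arid1a Fl/Fl with Alb-cre, a transgene that expresses Cre recombinase from the albumin promoter and so acts mainly in hepatocytes. The WT group (4 libraries) carried Arid1a Fl/Fl without Cre, so that both groups share the floxed alleles. The sex of the mice is not given in the sources used here, and the labels do not say whether the libraries came from separate animals.

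Histones package DNA into nucleosomes. H2A, H2B, H3 and H4 form the protein core around which DNA is wound, and H1 binds the linker DNA between cores. The clustered genes are known as replication-dependent histone genes: they have no introns as a rule, they are transcribed mainly in S phase, and their mRNAs typically end in a stem-loop bound by the protein SLBP instead of a poly(A) tail. Many lie in pairs, with an H2A and an H2B gene transcribed away from a shared upstream region. Adult liver is a tissue in which few hepatocytes divide, and several clustered genes are known to give polyadenylated mRNAs in resting cells. ARID1A is a subunit of the SWI/SNF complexes, which move and evict nucleosomes.

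The stem-loop is what these genes share most visibly in sequence, and it is shown for genes on which the results below turn. In the GENCODE M21 annotation of GRCm38, 64 of 66 gene IDs were found, and 39 of these 64 had the stem-loop in an annotated transcript. Outside the histone genes it was present in 6 of 58729 protein-coding transcripts (0.0102%). The H4 genes carried a form of their own: 7 had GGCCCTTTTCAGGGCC and 2 had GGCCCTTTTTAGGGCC, whereas every stem-loop found in the other types began with GGCTCTTTT. The lines below give the 16-base stem-loop in capitals with annotated flanking bases, in DNA letters on the sense strand.
Hist1h4m: ctaaaGGCCCTTTTCAGGGCCatc
Hist1h4n: ctaaaGGCCCTTTTCAGGGCCatccaatta
Hist1h4i: ttaaaGGCCCTTTTTAGGGCCaccacaaaa
Hist1h2ao: aaaaaGGCTCTTTTCAGAGCCatccacagt
Hist1h3c: aaaaaGGCTCTTTTAAGAGCCacctaagat
Hist1h1c: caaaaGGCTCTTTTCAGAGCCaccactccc
Where a gene had several annotated transcripts, the one whose stem-loop lay nearest its end was taken. In 20 genes the transcript ended within 100 bases of the stem-loop, and in 19 it ran more than 100 bases beyond it. In the other 25 the annotated transcript held no stem-loop.

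Upstream sequence was taken from the RefSeq promoter table (GRCm38.p6), in which 59 of 66 genes were found. Within the 250 bases before the start, on both strands, TATAA was present in 38 of 59 histone genes, against 22.8% of all 32851 promoters. CCAAT was present in 48 of 59, against 33.8% of all promoters, and in every H2A (16 of 16) and H2B (15 of 15) promoter but in 3 of 12 H4 promoters. The octamer ATTTGCAT was present in 13 of 59, against 1.60% of all promoters, and these 13 were 6 H2A and 7 H2B genes. These matches are letters in a window and say nothing of binding. The first 2 lines below are the whole stretches between the starts of divergent H2A and H2B genes on the plus strand (chr13:21753913-21754075 and chr13:21716184-21716411). The following 4 lines are the 120 bases before the start of a gene, on its own strand (chr13:21811626-21811745 for Hist1h4m, chr13:21832198-21832317 for Hist1h4n, chr13:21780626-21780745 for Hist1h1b and chr13:22041363-22041482 for Hist1h4i). Capitals mark these motifs or their reverse complements, overlapping matches included.
Hist1h2ak and Hist1h2bn: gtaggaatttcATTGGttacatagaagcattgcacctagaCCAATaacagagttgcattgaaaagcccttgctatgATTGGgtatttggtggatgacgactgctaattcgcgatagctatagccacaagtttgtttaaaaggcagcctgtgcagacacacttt
Hist1h2bl and Hist1h2ai: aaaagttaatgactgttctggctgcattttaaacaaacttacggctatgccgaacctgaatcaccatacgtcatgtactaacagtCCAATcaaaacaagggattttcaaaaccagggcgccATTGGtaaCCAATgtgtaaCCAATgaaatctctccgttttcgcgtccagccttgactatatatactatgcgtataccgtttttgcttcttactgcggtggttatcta
Hist1h4m: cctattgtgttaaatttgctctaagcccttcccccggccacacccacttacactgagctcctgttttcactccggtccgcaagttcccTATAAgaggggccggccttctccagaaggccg
Hist1h4n: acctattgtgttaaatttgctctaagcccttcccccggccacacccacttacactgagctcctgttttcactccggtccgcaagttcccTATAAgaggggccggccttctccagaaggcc
Hist1h1b: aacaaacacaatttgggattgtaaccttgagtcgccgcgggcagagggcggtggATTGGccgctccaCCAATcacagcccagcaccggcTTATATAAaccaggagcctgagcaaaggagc
Hist1h4i: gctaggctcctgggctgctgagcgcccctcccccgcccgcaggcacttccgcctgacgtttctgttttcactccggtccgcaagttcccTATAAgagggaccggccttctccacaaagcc
Hist1h4m and Hist1h4n share a run of 119 of these 120 bases, and Hist1h4m and Hist1h4i share a run of 38.

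Values are FPKM (fragments scaled to gene length and to the reads of a library), as the authors deposited them. Depth, estimated from the spacing of low values, was 13750000 to 15300000 reads in KO libraries and 12400000 to 13550000 in WT libraries, and 1 read in a 500-base transcript was worth 0.131 to 0.161 FPKM. Arid1a, the targeted gene (ENSMUSG00000007880), was at 2.70, 2.86, 3.46 and 2.59 FPKM in KO 1 to KO 4, against 5.16, 8.38, 3.998 and 4.10 FPKM in WT 1 to WT 4. The groups did not overlap, with KO lower (exact two-sided permutation p = 0.0286, the smallest that 70 labelled splits allow), and the limma adjusted p over all genes was 0.316. The 5 hepatocyte markers summed to 30389 to 42690 FPKM in KO and 26649 to 36682 FPKM in WT.

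Of the 66 histone genes, 65 were above 0 FPKM in at least 1 library. Hist1h1t, the testis H1 gene, was listed at 0 in all 8. On the log2(FPKM + 1) scale, 56 of the 65 had a higher mean in KO and 9 a lower one. The median change over the 65 was 0.45, beside 0.0016 over all 27571 genes above 0 FPKM in at least 1 library. Among the 59 histone genes tested, which had a mean of at least 1 FPKM, 51 had a positive change, and the median was 0.51. Over all 11266 tested genes 45.5% had a positive change, and the median was -0.03. In 21 of the 66 every KO library lay above every WT library, and in 0 every KO library lay below. Among tested genes these arrangements occurred in 3.05% and 3.18% of genes, and 20 of the 21 histone genes were among those tested. No single histone gene passed the threshold. A linear model (limma, adjusted over all tested genes) was fitted to the genes with a mean of at least 1 FPKM, a filter that 59 of the 66 passed, and it called 0 of these higher and 0 lower in KO at an adjusted p of 0.05. Over all tested genes it called 0.408% higher and 0.355% lower. At an unadjusted p under 0.05, 28 of the 59 were higher in KO and 0 lower, beside 4.99% and 4.82% of all tested genes. Of the 59, 6 passed the filter only through KO, with a WT mean below 1 FPKM. Without the filter, 28 of the 65 genes above 0 were higher and 0 lower at an unadjusted p under 0.05. In that fit 2684 of 27571 genes had an unadjusted p under 0.05 in either direction, and 0 histone genes passed the adjusted threshold. With the filter, the count of 28 was 19 without KO 1, and 12 without KO 1 and WT 3 together. In whole tissue, fewer cells of a type and less RNA per cell cannot be told apart.

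**Figure D1:**
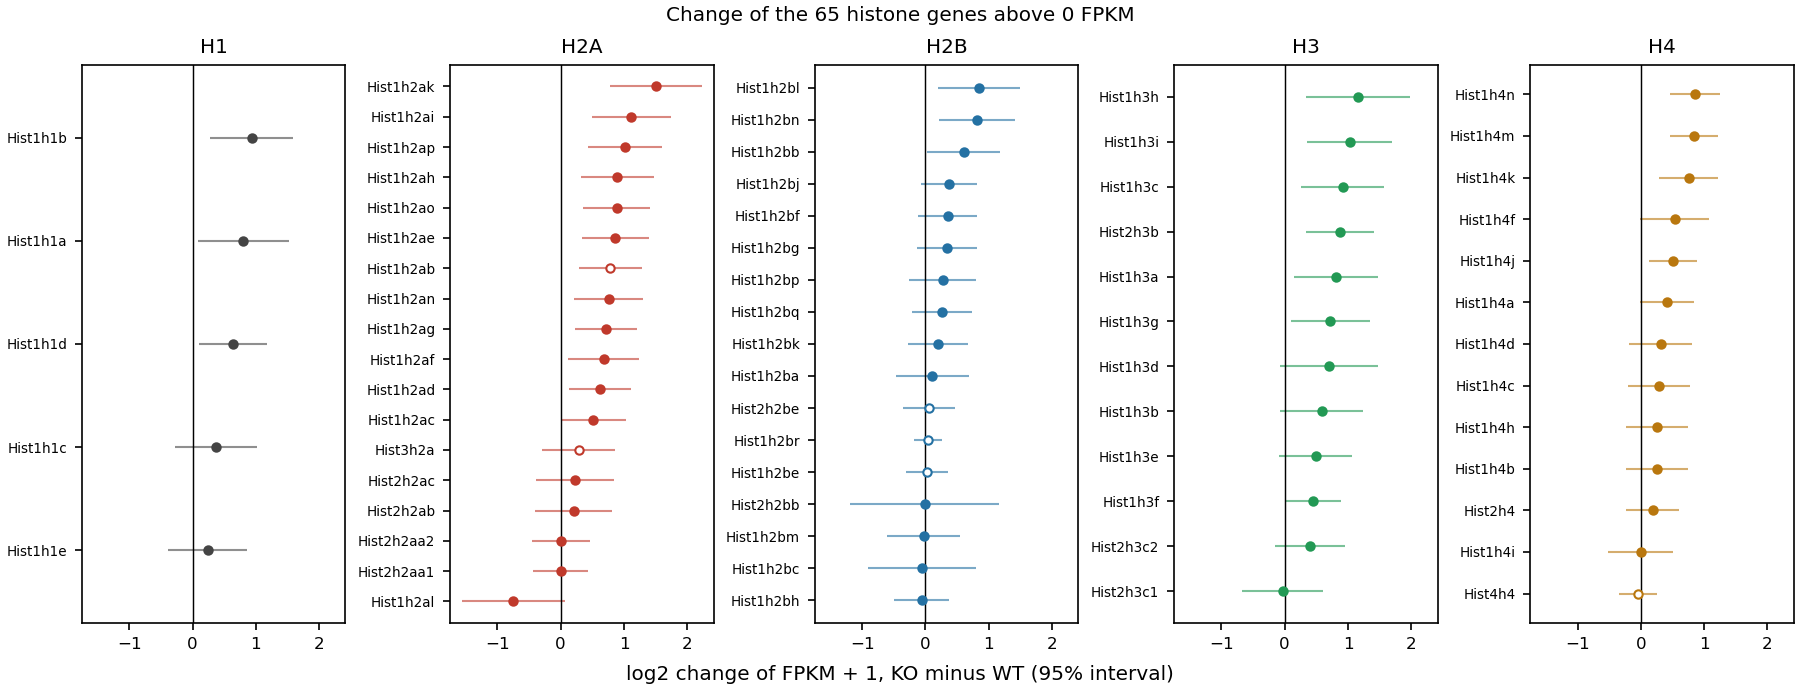
Difference between KO and WT in mean log2(FPKM + 1) (horizontal axis) for each of the 65 histone genes above 0 FPKM, by core type, with 95% intervals from limma. Filled points are the 59 genes that passed the filter of 1 FPKM and open points the others, taken from the fit without the filter; 56 of the 65 points lie right of 0 and Hist1h2al lies farthest to the left.

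These genes share sequence, which limits what a value of any one of them means. For 33 of the 64 annotated genes, at least 50% of the 50-base stretches of their transcripts also occur in another gene. Only 8 share under 10%: Hist1h1a, Hist1h1b, Hist1h1c, Hist1h1d, Hist1h1t, Hist2h2be, Hist2h4 and Hist4h4. How the authors assigned reads that match several genes is not given in the sources used here. Hist1h3h and Hist1h3i, for example, were both at 3.87 FPKM in WT 1. The 33 genes that share most summed to 270, 197, 175 and 229 FPKM in KO 1 to KO 4, against 167, 147, 138 and 172 FPKM in WT 1 to WT 4. The 8 that share least summed to 45.8, 40.2, 41.3 and 57.2 FPKM in KO 1 to KO 4, against 19.6, 38.3, 26.8 and 38.4 FPKM in WT 1 to WT 4. In both sums every KO library was above every WT library, but in the second KO 2 and WT 4 nearly met. Most of the second sum came from Hist1h1d and Hist1h1c, with means of 21.7 and 11.5 FPKM, and both overlapped singly. Of the 8 genes only Hist1h1b did not overlap, whereas 15 of the 33 did not, 14 of them tested. Among all tested genes, 3.05% had every KO library above every WT library. The 23 genes that share 10 to 50%, which hold the largest sum, overlapped, at 258, 317, 256 and 385 FPKM in KO 1 to KO 4, against 238, 254, 209 and 277 FPKM in WT 1 to WT 4.

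Summed over all 66 genes, the histone values were at 580, 560, 476 and 677 FPKM in KO 1 to KO 4, against 431, 443, 378 and 495 FPKM in WT 1 to WT 4. The groups overlapped, since KO 3 lay below WT 4. The core types contributed unequally. The H3 sum was at 88.1, 38.0, 44.6 and 55.9 FPKM in KO 1 to KO 4, against 30.2, 34.1, 24.5 and 29.2 FPKM in WT 1 to WT 4. All KO libraries lay above all WT libraries, the ratio of the means was 1.92, and KO 1 stood highest. The H4 sum was at 160, 170, 166 and 234 FPKM in KO 1 to KO 4, against 159, 152, 109 and 126 FPKM in WT 1 to WT 4. These groups did not overlap either, but KO 1 and WT 1 nearly met. The H2B sum averaged 99.2 ± 19.2 FPKM in KO and 85.0 ± 28.1 FPKM in WT (SD, n = 4 each), a difference smaller than the spread in either group. The sums for H1, 113 ± 31.3 FPKM in KO and 85.2 ± 20.8 FPKM in WT, and for H2A, 122 ± 22.2 FPKM in KO and 101 ± 12.1 FPKM in WT, overlapped too (SD, n = 4 each). Sums over members received no test.

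**Figure D2:**
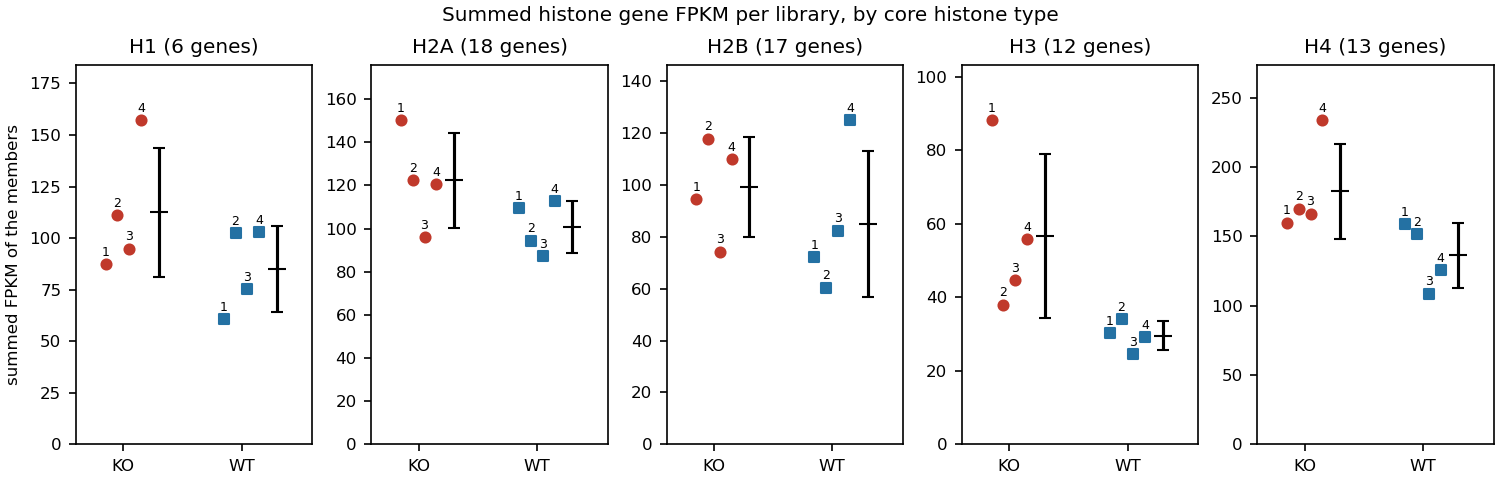
Summed FPKM (vertical axis) of the histone genes of each core type in each library, KO as circles and WT as squares, with the replicate number above each point and the mean and SD at the right. The H3 and H4 sums do not overlap between KO and WT, with ratios of means of 1.92 and 1.34, whereas the H1, H2A and H2B sums do.

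The H1 genes, which encode the linker histones, had the lowest median share of 50-base stretches found in another gene among the core types, at 1.13%. For Hist1h1e, however, this share was 32.0%. Hist1h1e was the most abundant, at 44.1, 72.7, 56.4 and 103 FPKM in KO 1 to KO 4, against 42.6, 66.9, 50.2 and 66.7 FPKM in WT 1 to WT 4. The groups overlapped (log2 change 0.24 ± 0.28 SE, limma adjusted p = 0.880). Hist1h1d was at 23.7, 24.3, 22.7 and 35.4 FPKM in KO 1 to KO 4, against 11.7, 24.2, 14.9 and 17.0 FPKM in WT 1 to WT 4. WT 2 was the only WT library at the KO level (log2 change 0.64 ± 0.24 SE, limma adjusted p = 0.395). Hist1h1c was at 11.8, 12.5, 11.8 and 14.8 FPKM in KO 1 to KO 4, against 5.38, 10.2, 8.57 and 17.1 FPKM in WT 1 to WT 4. Here the highest and the lowest library were both WT, and the adjusted p was 0.787 (limma). Hist1h1b (ENSMUSG00000058773), an H1 gene known from dividing cells, was at 4.06, 0.969, 1.58 and 2.38 FPKM in KO 1 to KO 4, against 0.630, 0.200, 0.893 and 0.763 FPKM in WT 1 to WT 4. All KO libraries were above all WT libraries, with a log2 change of 0.93 ± 0.29 (SE). This gene passed the filter only through KO, and its limma adjusted p was 0.268 with the filter and 0.372 without it. At the estimated depth these values stand for about 41.5, 11.0, 16.2 and 26.2 reads in KO 1 to KO 4 and 5.9, 2, 9 and 7 reads in WT 1 to WT 4. No 50-base stretch of this gene occurs in another annotated gene.

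The H2A genes of the Hist1 group were where KO and WT separated most often. Of these 13 genes, 11 had every KO library above every WT library, and the median change was 0.79. Hist1h2ab, among the 11, was below the filter. Of the 12 tested genes 10 had this arrangement, beside 3.05% of all tested genes, with a median change of 0.81. Hist1h2ae and Hist1h2ak, among these 10, passed the filter only through KO. The 4 Hist2 H2A genes had 0 such cases and a median of 0.11. Hist1h2ak (ENSMUSG00000063021) had the greatest log2 change of the histone genes above 0, a value to which KO 1 contributed most. It was at 6.53, 2.01, 1.48 and 1.97 FPKM in KO 1 to KO 4, against 0.282, 0.409, 0.289 and 0.125 FPKM in WT 1 to WT 4. The means differed 10.9-fold, and 6.59-fold without KO 1, when the gene no longer reached the filter of 1 FPKM. The log2 change was 1.50 ± 0.32 (SE). Since the gene passed the filter only through KO, its limma adjusted p is given both with the filter, 0.0900, and without it, 0.198. The WT values correspond to about 0.6 to 2.2 reads per library, so the fold rests on few reads. The 2 most abundant Hist2 H2A genes gave another picture. Hist2h2aa1 averaged 16.7 ± 2.51 FPKM in KO and 16.9 ± 3.35 FPKM in WT (SD, n = 4 each), and the 95% interval of its log2 change ran from -0.44 to 0.44. Its copy Hist2h2aa2, all of whose 50-base stretches occur elsewhere, averaged 19.2 ± 2.81 FPKM in KO and 19.3 ± 4.14 FPKM in WT (SD, n = 4 each).

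Hist1h2al had a lower mean in KO by more than any other H2A gene. It was at 22.5, 24.0, 9.14 and 17.5 FPKM in KO 1 to KO 4, against 35.8, 15.4, 34.0 and 40.3 FPKM in WT 1 to WT 4. WT 2 lay inside the KO range (log2 change -0.75 ± 0.36 SE, limma adjusted p = 0.556). With the greatest mean of the H2A genes, this row held down their sum. Without it, the 12 other Hist1 H2A genes summed to 89.3, 45.5, 42.0 and 52.6 FPKM in KO 1 to KO 4, against 27.8, 22.8, 20.99 and 27.2 FPKM in WT 1 to WT 4. The ratio of the means was then 2.32 with no overlap, while with it the ratio was 1.35 and the groups overlapped. Although the table types the row as protein coding, GENCODE M21 annotates this ID as a processed pseudogene at chr13:51202727-51203065, which is far from the other Hist1 genes. Of its 50-base stretches, 67.6% occur in other genes. A further H2A row, Hist1h2aj, is typed as a pseudogene in the table and so is not among the 66. It was at 5.004, 2.37, 2.35 and 2.84 FPKM in KO 1 to KO 4, against 1.43, 1.33, 0.710 and 1.40 FPKM in WT 1 to WT 4, so that every KO library was above every WT library.

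The H2B genes, whose products pair with H2A in the nucleosome core, had a median change of 0.20. In 0 of 17 was every KO library above every WT library, which is near the share of 3.05% among all tested genes. Hist1h2bc was the most abundant, at 19.7, 55.8, 22.7 and 45.0 FPKM in KO 1 to KO 4, against 27.9, 23.2, 36.2 and 56.2 FPKM in WT 1 to WT 4. Both groups spanned nearly the same range (log2 change -0.05 ± 0.38 SE, limma adjusted p = 0.987). Hist1h2bg, at 17.6 ± 2.14 FPKM in KO and 14.0 ± 3.79 FPKM in WT, and Hist1h2bf, at 8.76 ± 1.26 FPKM in KO and 6.76 ± 1.91 FPKM in WT, overlapped as well (SD, n = 4 each). Hist1h2bn had the smallest p of the type. It was at 9.36, 6.22, 3.79 and 6.06 FPKM in KO 1 to KO 4, against 3.27, 1.92, 3.06 and 4.20 FPKM in WT 1 to WT 4. Only KO 3 lay below a WT library, WT 4 (log2 change 0.82 ± 0.27 SE, limma adjusted p = 0.295). Hist1h2ba, the testis H2B gene, averaged 5.42 ± 0.989 FPKM in KO and 5.16 ± 2.36 FPKM in WT (SD, n = 4 each).

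**Figure D3:**
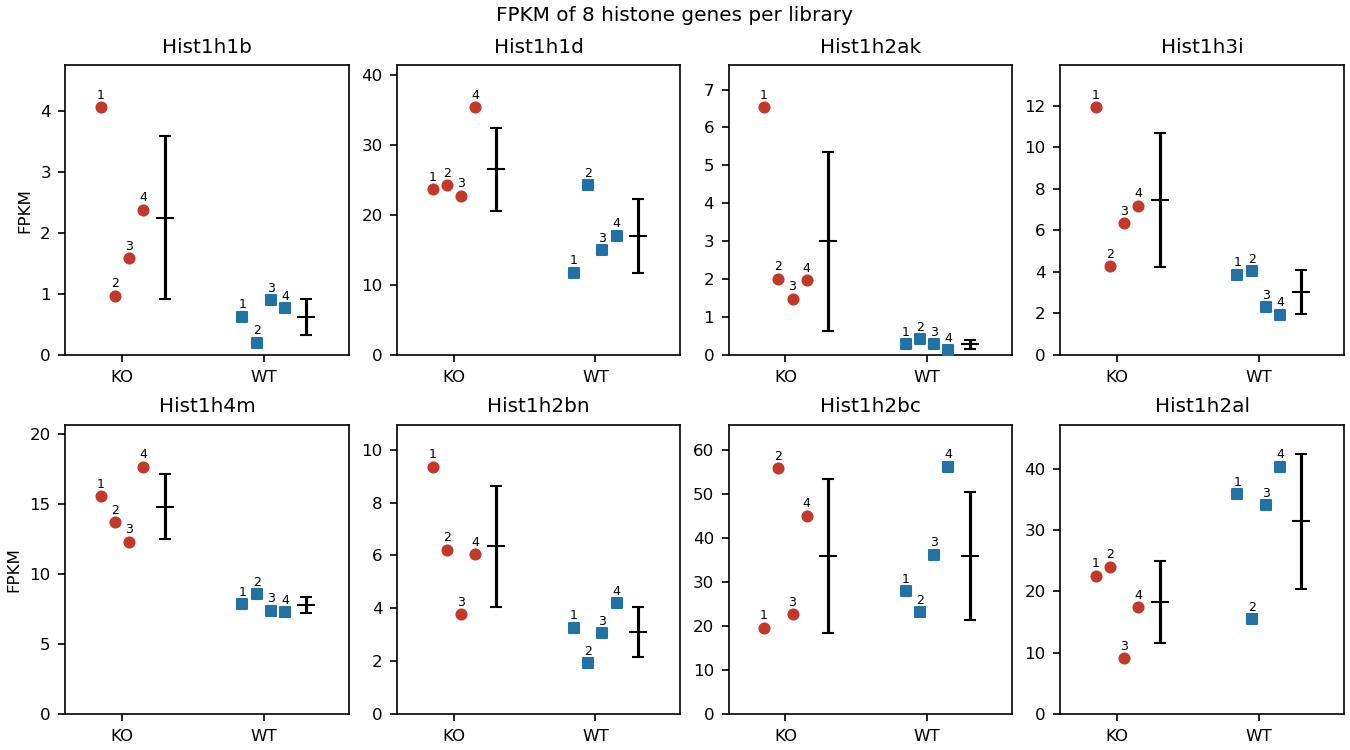
FPKM (vertical axis) of 8 histone genes in each library, KO as circles and WT as squares, with the replicate number above each point and the mean and SD at the right. Hist1h1b, Hist1h2ak, Hist1h3i and Hist1h4m do not overlap between KO and WT, Hist1h1d, Hist1h2bn and Hist1h2bc do, and Hist1h2al has the lower mean in KO.

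The difference between H2A and H2B was seen within pairs as well. In 8 divergent H2A and H2B pairs both starts were in the RefSeq promoter table, and they lay 164 to 249 bases apart. Divergent neighbours with a start missing there were left out, among them Hist1h2ac with Hist1h2bc, Hist2h2ac with Hist2h2be, and Hist1h2ap with Hist1h2br. Of these left-out H2A genes, Hist1h2ac and Hist2h2ac overlapped between the groups. In Hist1h2ap every KO library was above every WT library. In all 8 pairs with RefSeq starts every KO library was above every WT library for the H2A gene, and the groups overlapped for the H2B gene. Among all tested genes, 3.05% had every KO library above every WT library. On the log2(FPKM + 1) scale the H2A change was the larger one in all 8 pairs, at 0.62 to 1.50 for H2A and 0.20 to 0.85 for H2B. Hist1h2ae, Hist1h2ak and Hist1h2bl passed the filter only through KO, with WT means of 0.874, 0.276 and 0.424 FPKM. The closest pair was Hist1h2ak and Hist1h2bn, whose shared upstream stretch is the first one printed above. Hist1h2ai and Hist1h2bl, the pair of the second stretch, had changes of 1.12 and 0.85. By ratio of mean FPKM this pair had the other order, at 2.44-fold for Hist1h2ai and 3.86-fold for Hist1h2bl. The H2A genes of these pairs share sequence among themselves, so the 8 pairs are not independent, and the difference between partners was not tested.

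**Figure D4:**
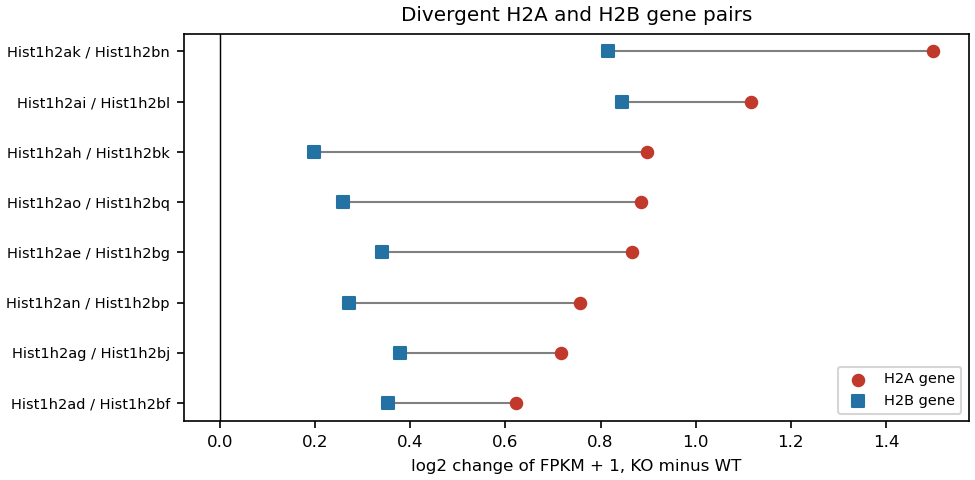
Difference between KO and WT in mean log2(FPKM + 1) (horizontal axis) for the H2A gene (circle) and the H2B gene (square) of each of 8 divergent pairs, joined by a line. Only pairs with both starts in the RefSeq promoter table are drawn. On this scale the H2A gene lies to the right of its H2B partner in all 8 pairs, whereas by ratio of mean FPKM Hist1h2bl changed more than Hist1h2ai.

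Of the 12 H3 genes, 4 had every KO library above every WT library, beside 3.05% of all tested genes, and the median change was 0.71. Hist1h3i was at 11.9, 4.29, 6.35 and 7.20 FPKM in KO 1 to KO 4, against 3.87, 4.05, 2.30 and 1.93 FPKM in WT 1 to WT 4. KO 2 exceeded the highest WT library by little (log2 change 1.03 ± 0.30 SE, limma adjusted p = 0.212). Its near copy Hist1h3h was at 11.6, 3.597, 5.502 and 7.14 FPKM in KO 1 to KO 4, against 3.87, 3.63, 1.32 and 1.32 FPKM in WT 1 to WT 4, and overlapped. Of the 50-base stretches of Hist1h3h and Hist1h3i, 79.3% of each occur in the other. Hist2h3b, on chromosome 3, was at 9.83, 4.18, 5.31 and 5.17 FPKM in KO 1 to KO 4, against 2.49, 3.42, 2.61 and 2.51 FPKM in WT 1 to WT 4. Among the 10 Hist2 genes it was the only one whose groups did not overlap (log2 change 0.87 ± 0.24 SE, limma adjusted p = 0.180). Hist1h3e, nearly as abundant as Hist1h3i over all libraries, averaged 6.37 ± 2.23 FPKM in KO and 4.10 ± 0.777 FPKM in WT (SD, n = 4 each). KO 1 was the highest KO library for 10 of the 12 H3 genes and for 12 of the 18 H2A genes, but for 2 of the 13 H4 genes.

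The H4 genes included the histone mRNA second in mean FPKM to Hist1h1e, Hist1h4d, and their 3 most abundant members overlapped between the groups. Hist1h4d averaged 46.7 ± 14.7 FPKM in KO and 36.5 ± 5.16 FPKM in WT, and Hist1h4h 33.9 ± 5.76 FPKM in KO and 28.7 ± 7.62 FPKM in WT (SD, n = 4 each). Hist1h4c averaged 22.7 ± 4.01 FPKM in KO and 18.6 ± 4.32 FPKM in WT (SD, n = 4 each). The 5 H4 genes without overlap, all higher in KO, had lower means. Among all tested genes, 3.05% had every KO library above every WT library. Hist1h4m (ENSMUSG00000069306, chr13:21811746-21812147) had the smallest p of all histone genes. It was at 15.6, 13.7, 12.3 and 17.7 FPKM in KO 1 to KO 4, against 7.87, 8.59, 7.40 and 7.30 FPKM in WT 1 to WT 4. The KO values were clear of the narrow WT range, the log2 change was 0.84 ± 0.17 (SE), and the limma adjusted p was 0.0657. Hist1h4n (ENSMUSG00000069305, chr13:21831767-21832196), named after its values were seen because it is nearly a copy of Hist1h4m, was at 11.7, 11.5, 9.59 and 15.5 FPKM in KO 1 to KO 4, against 6.16, 6.21, 6.12 and 5.99 FPKM in WT 1 to WT 4. Its adjusted p was 0.0721 (limma). Of the 50-base stretches of Hist1h4m, 89.8% occur in Hist1h4n, so the 2 rows are not separate evidence. Both passed the threshold with median ratio scaling (limma adjusted p = 0.0476 for Hist1h4m and 0.0351 for Hist1h4n) and with quantile normalization (0.0433 and 0.0325). Under its other alternatives Hist1h4m did not pass, with a limma adjusted p of 0.134 scaled to equal sums, 0.142 with the replicate block and up to 0.312, without KO 1 and WT 3. Hist1h4i, also named after its values were seen because its upstream stretch resembles theirs, averaged 5.26 ± 1.70 FPKM in KO and 5.18 ± 1.07 FPKM in WT (SD, n = 4 each).

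By position, the Hist1 genes on chromosome 13 fell into 3 groups with gaps of over 100 kb between them, plus 2 genes standing alone, Hist1h2ba and Hist1h2al. The first group, 17 genes at chr13:21715763-21837530, summed to 143, 87.1, 84.0 and 113 FPKM in KO 1 to KO 4, against 54.0, 50.6, 45.6 and 54.2 FPKM in WT 1 to WT 4. Every KO library was above every WT library, the ratio of the means was 2.09, and 11 of the 17 genes did not overlap singly. Among all tested genes, 3.05% had every KO library above every WT library. The second group, 5 genes at chr13:22035164-22043676, had a ratio of 1.47, and 2 of its 5 genes did not overlap. The third and largest, 28 genes at chr13:23531050-23764406, had a ratio of 1.30, and 7 of its 28 did not overlap, 6 of them tested. Its sum was 315, 355, 299 and 447 FPKM in KO 1 to KO 4, against 260, 287, 234 and 310 FPKM in WT 1 to WT 4, and KO 3 lay below WT 4. The median share of 50-base stretches found in another gene was 86.4% in the first group, 74.2% in the second, 41.8% in the third and 58.6% in Hist2, whose ratio of sums was 1.11. The part of shared sequence in these ratios was not tested. The 10 Hist2 genes on chromosome 3 summed to 64.2 ± 2.77 FPKM in KO and 57.7 ± 10.8 FPKM in WT (SD, n = 4 each). Hist3h2a averaged 0.636 ± 0.466 FPKM in KO and 0.345 ± 0.387 FPKM in WT, and Hist4h4 0.237 ± 0.223 FPKM in KO and 0.263 ± 0.123 FPKM in WT (SD, n = 4 each).

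**Figure D5:**
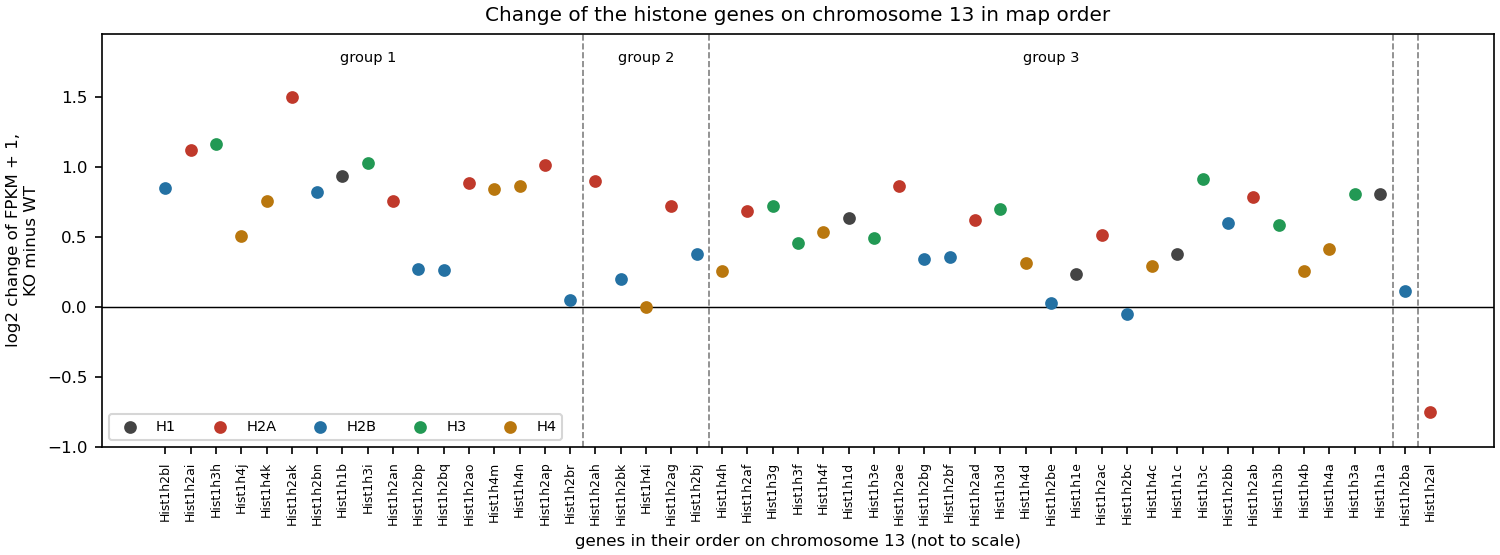
Difference between KO and WT in mean log2(FPKM + 1) (vertical axis) for the histone genes of chromosome 13 above 0 FPKM, in map order and coloured by core type, with dashed lines at gaps of over 100 kb. In group 1 all 17 points lie above 0, and Hist1h2al, alone at the right, has the lowest value at -0.75.

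Genes around the histone system were read from lists of textbook members, of which 0 passed the threshold in either direction. Histone variants encoded outside the clusters, which are made throughout the cell cycle, had 8 tested genes with a median change of -0.13, of which 2 were positive and 6 negative. H3f3b, which encodes the variant H3.3, was at 64.5, 31.9, 59.7 and 65.7 FPKM in KO 1 to KO 4, against 67.5, 93.7, 62.9 and 77.3 FPKM in WT 1 to WT 4 (limma adjusted p = 0.617). Factors that process histone mRNA had 16 tested genes with a median of -0.06, and Snrpd3, an Sm protein, averaged 3.58 ± 1.37 FPKM in KO and 4.82 ± 1.45 FPKM in WT (SD, n = 4 each). Histone chaperones and related binding proteins had 17 tested genes with a median of -0.13. Among them Rbbp4 averaged 4.89 ± 1.29 FPKM in KO and 10.9 ± 6.82 FPKM in WT (SD, n = 4 each), with a limma adjusted p of 0.424. Genes of S phase and DNA replication had 14 tested genes with a median of 0.35, of which 11 were positive and 3 negative. Of the positive ones, Mcm3, Mcm5, Mcm6, Rrm2, Lig1 and Prim1 passed the filter only through KO. Their WT means ran from 0.395 FPKM (Lig1) to 0.999 FPKM (Mcm3), so the filter has a part in this median. Mcm3, a subunit of the replicative helicase, was at 5.32, 1.22, 3.65 and 2.48 FPKM in KO 1 to KO 4, against 1.29, 0.618, 1.05 and 1.04 FPKM in WT 1 to WT 4 (limma adjusted p = 0.266).

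Sums of markers of division and of other cell types are given, since some were higher in KO as well. Within KO the total histone sum was highest in KO 4 and lowest in KO 3. The S phase list summed to 84.3, 44.2, 48.0 and 35.8 FPKM in KO 1 to KO 4, against 48.3, 30.4, 40.4 and 31.3 FPKM in WT 1 to WT 4, so that the groups overlapped. Within KO it was highest in KO 1, as the H3 and H2A sums were. It was lowest in KO 4, where the H1, H4 and total histone sums were highest, and the H2B sum was highest in KO 2. The 6 proliferation markers (Mki67, Top2a, Ccnb1, Cdk1, Birc5 and Aurkb), of which 0 reached a mean of 1 FPKM, summed to 6.24, 1.15, 2.53 and 1.39 FPKM in KO 1 to KO 4, against 0.686, 0.436, 0.445 and 0.577 FPKM in WT 1 to WT 4. Macrophage markers summed to 12.3 to 96.8 FPKM in KO and 4.67 to 8.06 FPKM in WT for 7 genes, of which 5 had a WT mean below 1 FPKM, and the highest KO library was KO 3. Endothelial markers summed to 12.9, 4.17, 13.4 and 11.6 FPKM in KO 1 to KO 4, against 1.51 to 3.64 FPKM in WT. Stellate markers summed to 22.0, 12.4, 8.92 and 16.1 FPKM in KO 1 to KO 4, against 1.90 to 5.97 FPKM in WT. Within KO the stellate sum was highest in KO 1 and lowest in KO 3, and the endothelial sum was highest in KO 3 and lowest in KO 2. Cholangiocyte markers summed to 0.527 to 6.82 FPKM in KO and 0.269 to 0.792 FPKM in WT, carried by Spp1. Of the others, Sox9 averaged 0.0558 FPKM in KO and 0.298 FPKM in WT, with every KO library lower, and Krt19, Krt7 and Epcam were at or near 0. Markers of T and NK cells, B and plasma cells, neutrophils and platelets each stayed below 1 FPKM in sum in all libraries, and the erythroid sum was at most 3.14 FPKM. The examples that the naming rule took from the cell type lists were Apoa1, Cd5l, Cdh5, Dcn, Spp1 and Alas2. Cd5l averaged 19.98 ± 12.5 FPKM in KO and 1.89 ± 0.644 FPKM in WT (SD, n = 4 each). The part that dividing cells or cells other than hepatocytes have in the histone values was not tested.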

How the data were processed

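Expression was deposited as FPKM in a single table. The submitters' processing notes name TopHat, edgeR and mm10, with no version or role; how FPKM was computed, from which annotation and whether by strand, is not given in the sources used here. Per the labels' protocols, total RNA was extracted with Trizol and a Qiagen kit, followed by a Nugen library preparation. Whether RNA with a poly(A) tail was favoured is not described here. How fully the values cover histone mRNA that ends in the stem-loop was not tested.

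The 11266 genes averaging at least 1 FPKM were analysed as log2(FPKM + 1), unscaled. This scale understates the change of low genes. KO was set against WT (4 libraries each) in limma 3.58.1 under R 4.3.3 (intensity trend, two-sided, Benjamini-Hochberg adjustment over all 11266 genes, threshold 0.05), after the fit was tested on simulated data. Changes of histone genes below the filter come from a fit without it. With no statement that libraries came from separate animals, p-values measure the spread among libraries, possibly a technical one. Sums and sequence features were computed in Python 3.11.15 and drawn with matplotlib 3.10.9. Since 52.6 to 56.3% of low values came within 0.1 of whole reads at the estimated depths (chance gives 20%), counts were not rebuilt.

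The histone genes, the other lists and the alternatives were chosen with earlier results of these data known. The naming rule took, per core type, the 3 most abundant genes and the one with the smallest p, the most abundant gene of Hist2, Hist3 and Hist4, and the gene with the smallest p in each other list. Other genes were named after their values were seen. The result of 1 marker gene is not reported here.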

Additional observations from a re-analysis of the deposited data

Results flagged for a closer look

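In 64 groups of 4 libraries examined for a library far from the other 3, 4 cases were found, and chance alone gives about 1 in 20 groups. Hist1h1d was at 35.4 FPKM in KO 4, against 22.7 to 24.3 FPKM in the other KO libraries. Hist1h2ak was at 6.53 FPKM in KO 1, against 1.48 to 2.01 FPKM in the other KO libraries. Hist2h3b was at 3.42 FPKM in WT 2, against 2.49 to 2.61 FPKM in the other WT libraries. The summed H4 FPKM was 234 in KO 4, against 160 to 170 in the other KO libraries.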

How the results depend on the processing

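The count of histone genes past the threshold was 1 higher in KO with a pseudocount of 0.1 FPKM (Hist1h2ak), 2 with quantile normalization and 2 with median ratio scaling (Hist1h4m and Hist1h4n), and 0 under every other alternative; the lower count was 0 throughout. The unadjusted count of 28 was 7 with a minimum of 5 FPKM, which tested 24 histone genes, 12 without KO 1 and WT 3 together, and 19 to 33 without 1 library each. Over all genes, the count higher in KO was 27 with a pseudocount of 5 FPKM, 14 with the minimum of 5 FPKM, 75 without WT 4 and KO 2 together, 18 without KO 1 and WT 3 together, and 20 to 92 without 1 library each. The lower count was 26 with no filter, 13 with the minimum of 5 FPKM, 12 without KO 1 and WT 3 together, and 14 to 44 without 1 library each. With the replicate number as a block, the counts were 16 higher and 8 lower, and 28 histone genes had an unadjusted p under 0.05. Libraries with the same number did not deviate together, with correlations of 0.0964, -0.0668, 0.0151 and 0.2496, so the numbers were not taken as pairs.

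The log2 ratio of the H2A sums, 0.28, was 0.58 without Hist1h2al, the member with the greatest mean. Of 394 values of 20 named histone genes under the alternatives, 372 kept direction and side of the threshold, 3 newly passed it, and 19 reversed, in 3 genes whose change was near 0; the cause was not tested. Hist1h2bc was at 0.0598 with array weights, 0.21 without KO 1 and WT 3, and -0.31 to 0.18 without 1 library each. Hist2h2aa1 was at 0.0429 with quantile normalization, 0.0318 with median ratio scaling, and -0.13 to 0.10 without 1 library each. Hist2h2aa2 was at -0.10 scaled to equal sums, -0.0012 with array weights, -0.0067 without WT 4 and KO 2, -0.0417 without KO 1 and WT 3, and -0.14 to 0.11 without 1 library each. The log2 ratio of the H3 sums was 0.65 to 1.09 without 1 library each. Leaving out WT 4 with KO 2 or KO 1 with WT 3 was chosen after seeing the data. Hist1h2ak could not be tested without KO 1, where its mean fell below 1 FPKM. Few reads limit the low genes: Hist1h2ak had about 0.6 to 2.2 reads per WT library and Hist1h1b 2 to 9.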
